A study of Caenorhabditis elegans with 8 samples.

Results

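The microRNA biogenesis and silencing machinery was followed through 10 genes of *Caenorhabditis elegans*: drsh-1, pash-1, dcr-1, alg-1, alg-2, ain-1, ain-2, nhl-2, tsn-1 and xrn-2. They were taken by name from the array's platform annotation, and all 10 were measured, out of 25478 genes in all. Each had 1 probe set, so no choice among probe sets was needed. The arrays held RNA of whole worms of 2 genotypes, wildtype (N2) and mir-71(n4115), the latter mutated in the microRNA gene mir-71. Both groups were synchronised by bleaching, grown without treatment on *Escherichia coli* OP50, and collected on day 1 of adulthood, with 4 arrays each. Whether the 4 samples of a group were grown apart is not in the labels, and p-values therefore cover the spread among these samples alone, which may be technical.

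As background, a microRNA is cut from its primary transcript in the nucleus by Drosha (DRSH-1) with its RNA-binding partner Pasha (PASH-1), and cut again in the cytoplasm by Dicer (DCR-1). The mature strand is then loaded into the Argonautes ALG-1 or ALG-2, which bind GW182-type proteins (AIN-1, AIN-2) that bring in the enzymes of deadenylation and decapping. The TRIM-NHL protein NHL-2 and the Tudor nuclease TSN-1 act with or bind to this silencing complex, and the exonuclease XRN-2 degrades mature microRNAs in worms. alg-1 has been reported as a target of mir-71, which makes its mRNA level in the mutant a question the design can address.

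All values are log2 signals, on which a step of 1 is a doubling. Because probe sets differ in how well they bind, a gene's level is compared only between arrays, never with another gene's level. No probe set was annotated to mir-71 (0 of 26192), and the mutated gene was therefore not checked on the arrays. The arrays did not fall cleanly by genotype. Wild-type replicate 4 was closer to the mutant arrays (r = 0.986 to 0.993 across probe sets) than to wild-type replicates 1 to 3 (r = 0.961 to 0.976). Replicate 4 is wild type by its label and was treated as such, with values given with and without it. At F16A11.5, a noncoding gene annotated at the mir-71 locus, replicate 4 read like the other wild-type arrays. The gene was 6.01 in replicate 4, 5.999 to 6.24 in replicates 1 to 3 and 8.75 to 8.87 in the mutants. It is on none of the gene lists used here, so these values are a description and not a test of the label. Whether the culture of replicate 4 differed from the others in stage or handling was not tested. Every difference over all 8 arrays rests on counting replicate 4 as wild type. Counts without replicate 4 rest on a choice made from the data and are not a measure of genotype alone.

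In mir-71(n4115) worms none of the 10 genes passed the test over all 8 arrays (limma, Benjamini-Hochberg over 26192 probe sets, threshold 0.05), where 1.84% of all genes did. At an unadjusted p under 0.05 there were 4 of 10 (alg-1, ain-1, nhl-2 and tsn-1), beside 26.1% of all genes. The median log2 difference, mutant minus wild type, was 0.41 for the 10 genes and 0.02 for all genes, and 9 of 10 were higher in the mutants, beside 51.8% of all genes. The genes divided into those whose arrays stayed level, drsh-1, pash-1 and dcr-1, and those whose value was high in the mutants and in wild-type replicate 4 alike, which were the other 7. That division was seen in the data and was not tested.

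**Figure D1:**
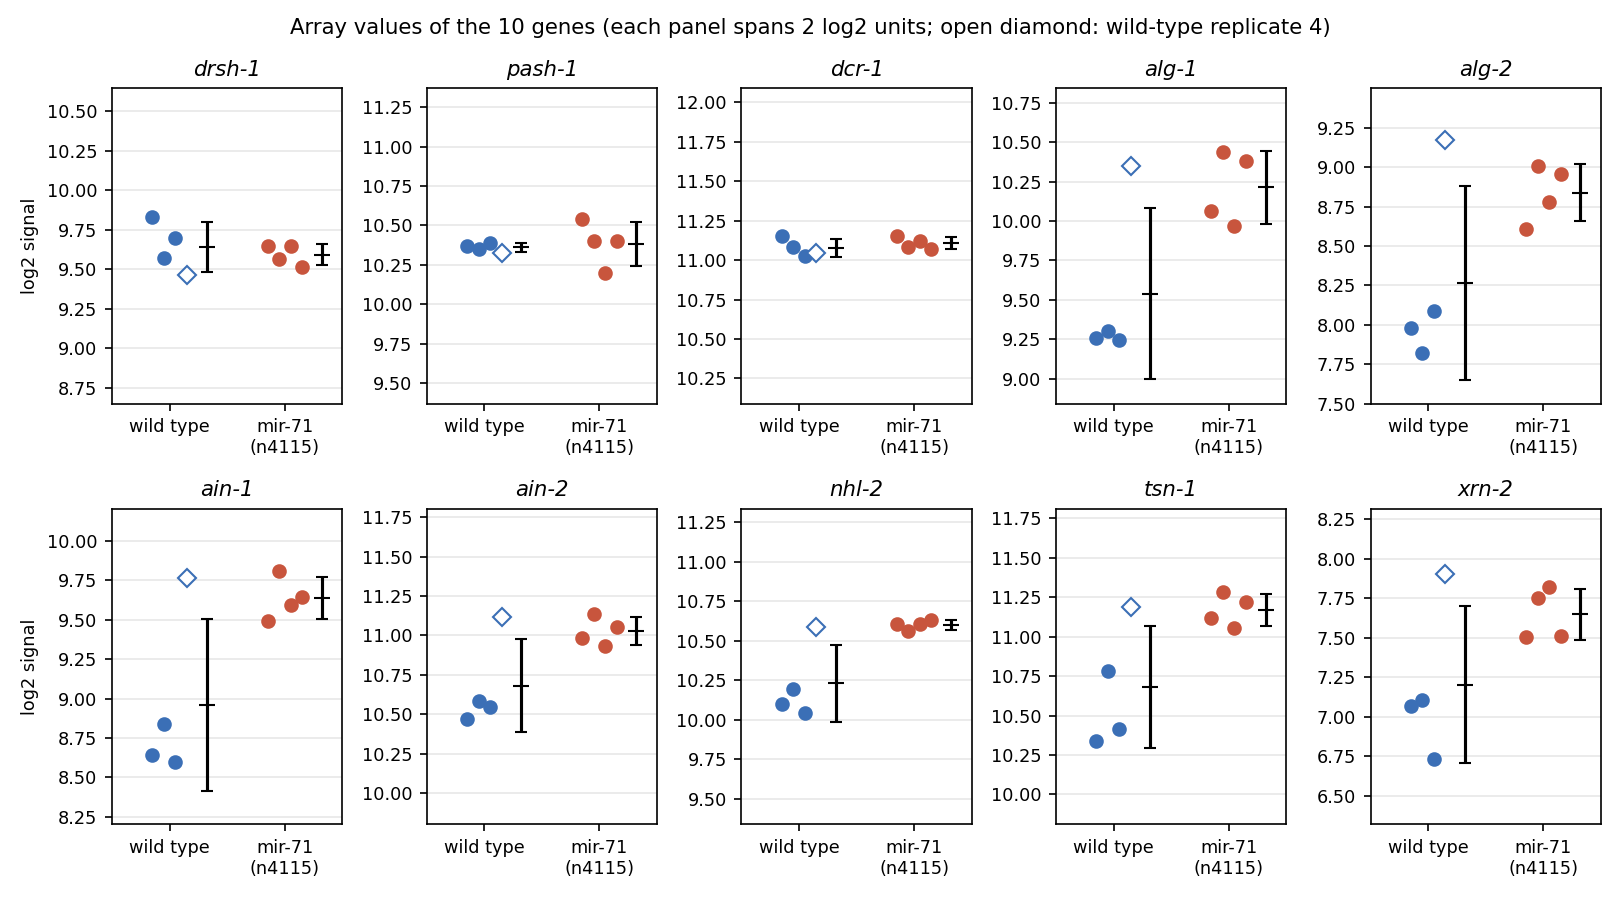
Log2 signal of each gene on every array, wild type in blue and mir-71(n4115) in red, with the mean and SD of the 4 arrays beside the points. For alg-1, alg-2, ain-1, ain-2, nhl-2, tsn-1 and xrn-2 the open diamond of wild-type replicate 4 lies above the other wild-type arrays, at the height of the mutants, while for drsh-1, pash-1 and dcr-1 all arrays lie close together.

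The nuclear processing enzymes were level between the groups. drsh-1, the nuclease of the first cut, read 9.83, 9.57, 9.70 and 9.46 in wild-type replicates 1 to 4 and, in mutant replicates 1 to 4, 9.65, 9.56, 9.65 and 9.51. The mutant values lay inside the wild-type range. Its log2 difference was -0.05 ± 0.12 (SE, n = 4 per group; limma, adjusted p = 0.815), with a 95% interval from -0.31 to 0.22. pash-1, whose protein holds the primary transcript for the cut, read 10.37, 10.35, 10.39 and 10.33 on the wild-type arrays and 10.54, 10.40, 10.20 and 10.40 on the mutant arrays. The mutants spread wider than the wild type (SD 0.139 against 0.0269) on both sides of it. The difference of pash-1 was 0.02 ± 0.11 (SE; limma, adjusted p = 0.904; 95% interval -0.22 to 0.27).

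dcr-1, the ribonuclease that makes the mature duplex and also makes small interfering RNAs, was the steadiest of the 10 in the wild type after pash-1. It read 11.15, 11.09, 11.02 and 11.05 on the wild-type arrays and 11.15, 11.08, 11.12 and 11.07 on the mutant arrays, so the groups overlapped almost wholly. The difference was 0.03 ± 0.10 (SE; limma, adjusted p = 0.861), and its interval of -0.19 to 0.25 leaves room for changes of up to 1.19-fold upward. For these 3 genes wild-type replicate 4 differed from the mean of replicates 1 to 3 by -0.23 to -0.04 on the log2 scale. Without that array their differences were -0.11, 0.01 and 0.02 for drsh-1, pash-1 and dcr-1, with adjusted p from 0.487 to 0.943.

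The Argonautes differed from this. alg-1 read 9.26, 9.30 and 9.24 in wild-type replicates 1 to 3, 10.35 in replicate 4, and 10.07, 10.44, 9.97 and 10.38 in the mutants. Replicates 1 to 3 agreed within 0.06, the mutants all lay above them, and replicate 4 stood among the mutants, above 2 of the 4. Over all arrays the means were 9.54 ± 0.54 and 10.21 ± 0.23 (SD, n = 4), a 1.60-fold difference with a 95% interval from 1.07 to 2.38 that did not pass (limma, adjusted p = 0.148). Without replicate 4 the difference was 0.94 ± 0.14 (SE; limma, adjusted p = 0.00110), or 1.92-fold.

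alg-2, the paralog that also carries microRNAs, was also high in replicate 4 and the mutants. Its values were 7.98, 7.82 and 8.09 in wild-type replicates 1 to 3, 9.17 in replicate 4, and 8.61, 9.005, 8.78 and 8.96 in the mutants. Replicate 4 was the highest of all 8 arrays, 2.31-fold above the other wild-type arrays, and every mutant array fell between it and them. The difference over all arrays was 0.57 ± 0.28 (SE; limma, adjusted p = 0.216), and without replicate 4 it was 0.87 ± 0.13 (adjusted p = 0.00125).

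Of the GW182-type genes, ain-1 gave the lowest p among the 10. It read 8.64, 8.84 and 8.60 in wild-type replicates 1 to 3, 9.76 in replicate 4, and 9.49, 9.81, 9.59 and 9.64 in the mutants. Here too replicate 4 lay within the mutant range, 2.10-fold above the other wild-type arrays. The means were 8.96 ± 0.55 and 9.64 ± 0.13 (SD, n = 4), a 1.60-fold difference (limma, adjusted p = 0.139). ain-2, its paralog, read 10.47, 10.59 and 10.55, then 11.12 in replicate 4, and 10.98, 11.13, 10.94 and 11.06 in the mutants. The spread among ain-2 arrays was smaller, and the difference was 0.35 ± 0.16 (SE; limma, adjusted p = 0.196), or 1.27-fold. Without replicate 4 ain-1 differed by 0.94 ± 0.12 (adjusted p = 5.70e-04) and ain-2 by 0.49 ± 0.10 (adjusted p = 0.00602).

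nhl-2, which enhances silencing by several microRNAs in worms, had the tightest mutant group of the 10. Its values were 10.10, 10.19 and 10.04 in wild-type replicates 1 to 3, 10.59 in replicate 4, and 10.60, 10.56, 10.61 and 10.63 in the mutants. Only 1 mutant array was below replicate 4. The mutant SD was 0.0298 against a wild-type SD of 0.246, and the difference was 0.37 ± 0.14 (SE; limma, adjusted p = 0.143). tsn-1 read 10.34, 10.78 and 10.42 in wild-type replicates 1 to 3, 11.19 in replicate 4, and 11.12, 11.28, 11.05 and 11.22 in the mutants. Its wild-type replicate 2 was already closer to the mutants than replicates 1 and 3 were. The difference of tsn-1 was 0.49 ± 0.19 (SE; limma, adjusted p = 0.151). Without replicate 4 nhl-2 differed by 0.49 ± 0.10 (adjusted p = 0.00488) and tsn-1 by 0.66 ± 0.14 (adjusted p = 0.00544).

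xrn-2, the exonuclease of microRNA turnover and of transcription termination, was also high in replicate 4. It read 7.07, 7.11 and 6.73 in wild-type replicates 1 to 3, 7.90 in replicate 4, and 7.50, 7.75, 7.82 and 7.51 in the mutants. Replicate 4 exceeded every mutant array, which in turn exceeded replicates 1 to 3. The difference was 0.44 ± 0.23 (SE; limma, adjusted p = 0.244), and without replicate 4 it was 0.68 ± 0.14 (adjusted p = 0.00558).

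Setting replicate 4 apart thus changed the call of 7 genes and of none of the other 3. Without it 7 of the 10 passed, all higher in the mutants, beside 36.9% of all genes passing in either direction and 19.1% passing as higher. Weighting arrays by their spread, which gave replicate 4 the least weight, also left 7 passing, beside 41.1% of all genes. The mutants lay wholly above wild-type replicates 1 to 3 for the same 7 genes, where 22.6% of all genes did. Replicate 4 lay above replicates 1 to 3 for 7 of 10, beside 37.6% of all genes, by 0.48 to 1.21 on the log2 scale. Seen from replicate 4, the mutant means of these 7 genes lay between -0.34 and 0.01. The only wild-type sample with values like the mutants is 1 array, so this last comparison has no replicate check.

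Gene length and tissue signal moved together with replicate 4 and the mutants. Across 18800 protein-coding genes, the log2 difference of replicate 4 from replicates 1 to 3 rose with the log2 of the gene's length (r = 0.40 across genes, which are not independent replicates). The 7 genes with a high replicate 4 spanned 3347 to 10267 bases and the 3 level genes 4401 to 8315, against a median of 2069 for all coding genes. Among the 4511 coding genes within the length range of the 10, the median log2 difference of the mutants from all wild-type arrays was 0.15. With the length trend taken out of each array, the median difference of the 10 genes was 0.16 in place of 0.41, and 0 of 10 passed, beside 2.10% of coding genes. dcr-1 and pash-1 then turned to -0.24 each (adjusted p = 0.275 and 0.291) and drsh-1 to -0.16.

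With the trend removed and replicate 4 left out as well, the 10 genes went both ways. alg-1 was higher by 0.62 ± 0.12, alg-2 by 0.56 ± 0.13, ain-1 by 0.80 ± 0.11, tsn-1 by 0.60 ± 0.12 and nhl-2 by 0.25 ± 0.09 (SE; limma, adjusted p from 8.45e-04 to 0.0465). dcr-1 was lower, at -0.37 ± 0.10 (adjusted p = 0.0152), as was pash-1, at -0.36 ± 0.11 (adjusted p = 0.0249). ain-2, xrn-2 and drsh-1 did not pass (adjusted p = 0.152, 0.182 and 0.0765). These were 7 calls among 10 genes, beside 41.4% of coding genes. Of the 7, 5 were higher and 2 lower, beside 3729 higher and 4049 lower among 18800 coding genes. dcr-1 and pash-1, level in the deposited values, were thus lower than other genes of like length in this setting. The 2 lower calls among 10 genes are near the share of lower calls among all coding genes.

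**Figure D2:**
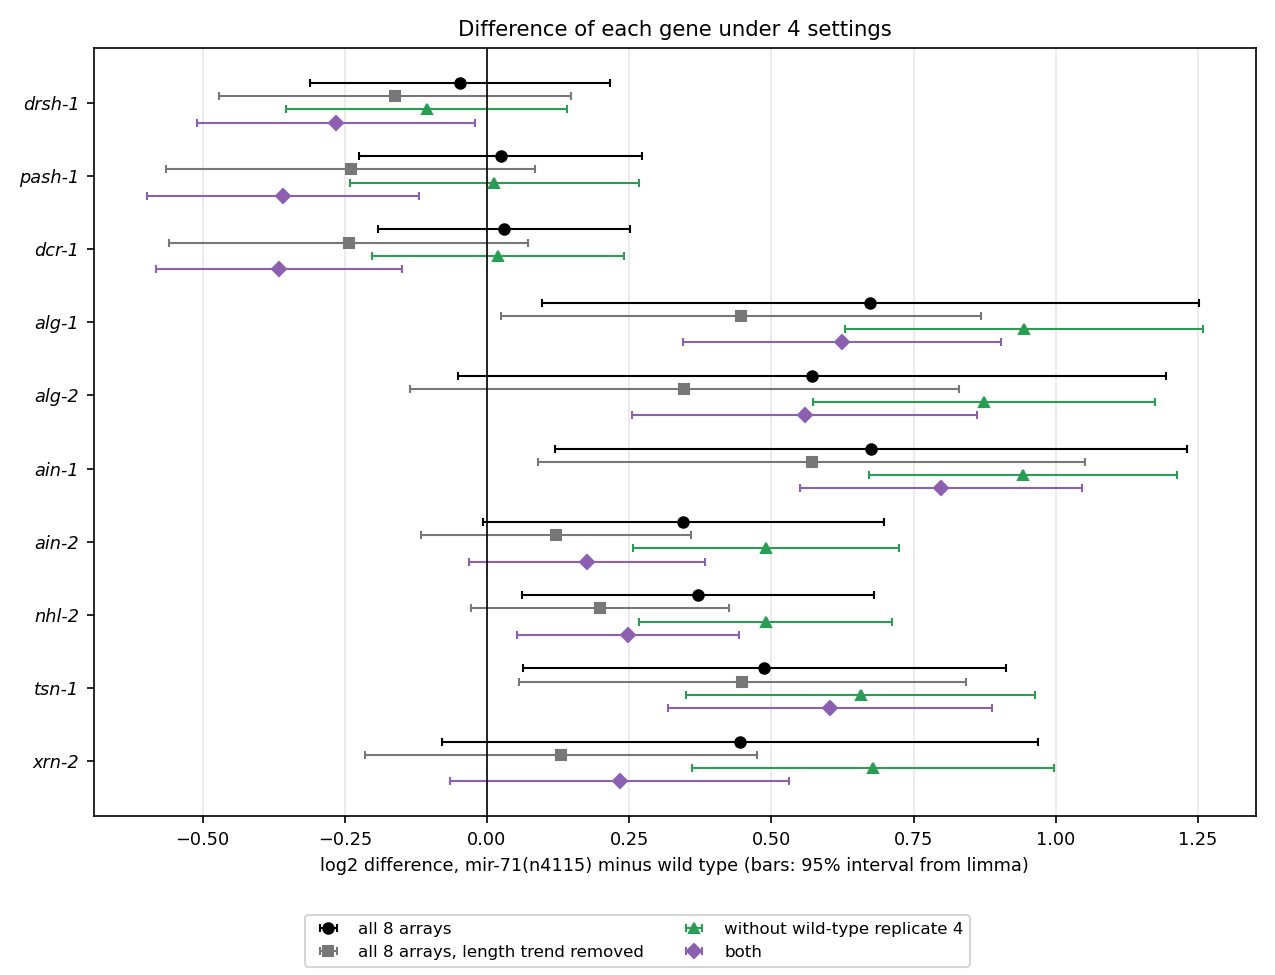
Log2 difference of each gene, mutant minus wild type, with its 95% interval, under 4 settings: all 8 arrays, the length trend removed, wild-type replicate 4 left out, and both. The differences of alg-1, alg-2, ain-1, ain-2, nhl-2, tsn-1 and xrn-2 lie above 0 under all 4 settings, and dcr-1 and pash-1 lie near 0 until the length trend is removed, when they lie below it.

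The tissue signal of the worms also differed. Summed linear signals of 11 moulting markers were 2027 to 2383 in wild-type replicates 1 to 3, 4106 in replicate 4 and 4308 to 4900 in the mutants, with all 11 higher in replicate 4 than in any of replicates 1 to 3. The 4 pharynx markers summed to 1386 to 1837, 3606 and 2357 to 3472 in that order, and the 6 neuron markers to 5779 to 6335, 8040 and 7597 to 7820. Body wall muscle (5 markers) gave 8626 to 8811, 12227 and 9889 to 11991. Oocyte and early embryo markers (15) gave 36603 to 42614, 48016 and 42774 to 47620, and epidermis markers (6) 6888 to 7946, 9214 and 8103 to 9734. Intestine markers (8) went the other way, with 15949 to 16650, 14502 and 14290 to 14846, as did zygotic embryo markers (10), with 6722 to 6954, 5550 and 5781 to 6557. Single markers were dim, with lowest values of 2.23 for ssq-1 (sperm), 2.41 for med-1 (zygotic embryo) and 4.16 for bli-1 (moulting). Detection above background was not judged. Not every marker followed its sum. Replicate 4 exceeded all of replicates 1 to 3 for 3 of 4 pharynx, 5 of 6 neuron and 4 of 5 muscle markers. The counts were 13 of 15 for oocyte and early embryo, 4 of 6 for epidermis, 3 of 8 for intestine and 2 of 10 for zygotic embryo. All these counts stand beside 37.6% of all genes, and that of intestine is near this share. The 16 sperm markers, in contrast, kept replicate 4 near the wild type in their sum, at 1475 to 1712, 1313 and 547 to 771. For 6 of these 16 markers replicate 4 exceeded all of replicates 1 to 3, near the share of all genes. In whole-worm RNA more cells of a type and more RNA per cell cannot be told apart, and the part of length or tissue in the values of the 10 genes was not tested beyond the correction above.

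Whether partners of the machinery moved unequally was asked within each array, where a difference in array scaling cancels. For 5 pairs of genes the log2 value of one was subtracted from the other and the groups compared by an exact permutation test, 2-sided, whose smallest possible p is 0.0286. None of the 5 passed after Benjamini-Hochberg adjustment over the pairs. Neither 1 nor 2 pairs at the smallest p can pass that adjustment, so a miss by 1 or 2 pairs alone was fixed in advance. alg-1 minus alg-2 was 1.28, 1.48, 1.16 and 1.17 on the wild-type arrays and 1.46, 1.43, 1.19 and 1.42 on the mutant arrays (difference 0.10; exact p = 0.400, adjusted p = 0.643). Replicate 4 was not set apart in it, so both Argonautes were high there to a like degree.

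ain-1 minus ain-2 was -1.83, -1.75, -1.95 and -1.35 on the wild-type arrays and -1.49, -1.32, -1.34 and -1.41 on the mutant arrays (difference 0.33; exact p = 0.0857, adjusted p = 0.429). In the mutants and in replicate 4 ain-1 was thus higher relative to ain-2 than in wild-type replicates 1 to 3, and the groups overlapped through replicate 4 alone. alg-1 minus ain-1, an Argonaute against its GW182-type partner, was 0.58 ± 0.08 on the wild-type arrays and 0.58 ± 0.15 on the mutant arrays (SD, n = 4; exact p = 1.00). drsh-1 minus pash-1 differed by -0.07 (exact p = 0.514, adjusted p = 0.643) and dcr-1 minus drsh-1 by 0.08 (exact p = 0.400, adjusted p = 0.643). These p-values miss the threshold and do not show that the partners moved alike.

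**Figure D3:**
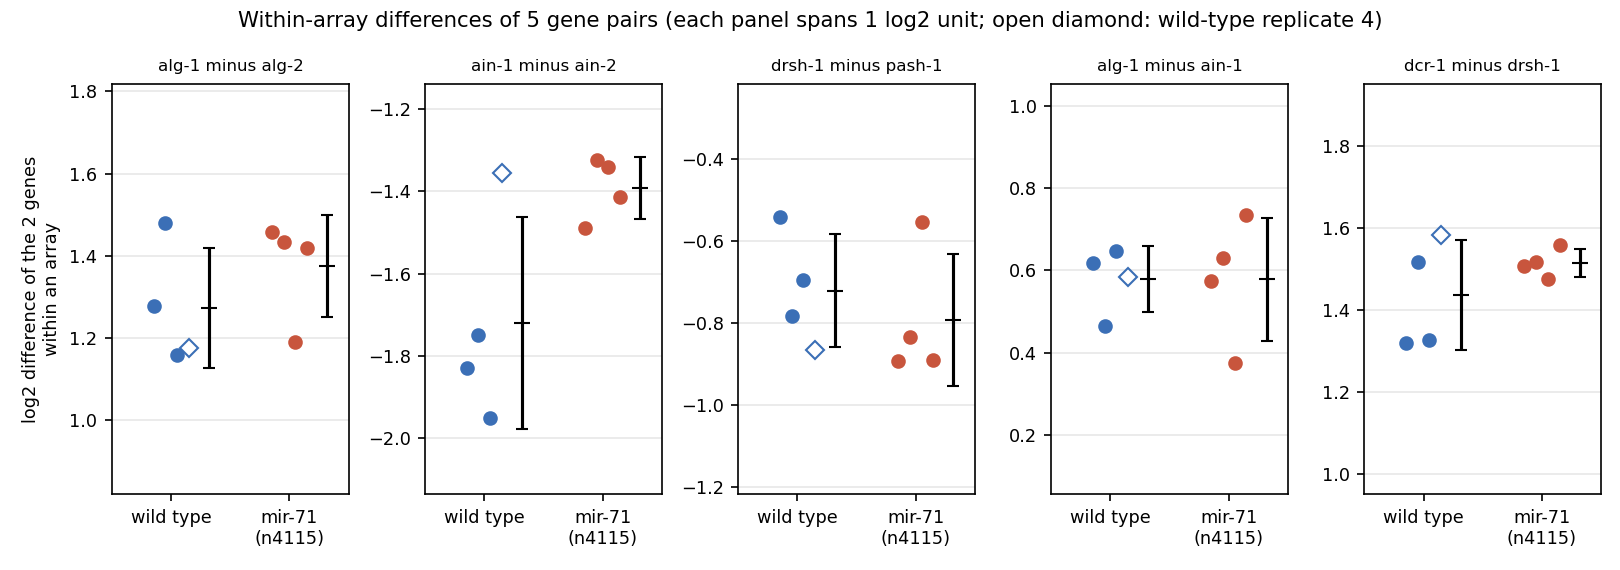
Difference of the log2 values of 2 genes within each array for 5 pairs, wild type in blue and mir-71(n4115) in red, with the mean and SD of the 4 arrays. Wild-type replicate 4 (open diamond) stands with the mutants for ain-1 minus ain-2, at -1.35, and within the other wild-type arrays for alg-1 minus alg-2 and alg-1 minus ain-1.

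The wider pathway was read from further lists. The deadenylases that act downstream of GW182-type proteins were mostly higher in the mutants without passing. Of 11 measured genes of the deadenylases and poly(A) binding 0 passed, 10 were higher in the mutants, and the median was 0.36. ccf-1 and ccr-4, the catalytic deadenylases of the CCR4-NOT complex, had the lowest p of the list. In ccf-1 the group means were 9.91 ± 0.45 and 10.47 ± 0.20, and in ccr-4 they were 10.95 ± 0.33 and 11.37 ± 0.10 (SD, n = 4; limma, adjusted p = 0.162 for each). In the median of this list replicate 4 lay higher than replicates 1 to 3 by 0.64. Replicate 4 exceeded all 3 for 10 of 11 genes, beside 37.6% of all genes.

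Among 12 genes of decapping, 5′ decay and P bodies 0 passed, 9 were higher, and the median was 0.21. The list held opposite members. xrn-1, the cytoplasmic 5′ to 3′ exonuclease, differed by 0.71 ± 0.30 (SE; limma, adjusted p = 0.173), with 8.19 in replicate 4 against 6.89 to 6.91 in replicates 1 to 3. lsm-1, a subunit of the ring that activates decapping, differed by -0.81 ± 0.31 (adjusted p = 0.150) and read 8.47 in replicate 4 against 9.47 to 10.03 in replicates 1 to 3. Without that array xrn-1 was higher by 1.03 (adjusted p = 0.00110) and lsm-1 lower, at -1.14 (adjusted p = 0.00136).

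The 13 measured Dicer partners and small RNA processing genes were balanced around 0, as dcr-1 was, with a median of -0.02, 6 higher and 0 passing. ebax-1, a substrate receptor of a ubiquitin ligase, differed by 0.52 ± 0.18 (SE; limma, adjusted p = 0.134). henn-1, the methyltransferase of small RNA ends, differed by -0.39 ± 0.18 (adjusted p = 0.197). Without replicate 4, 1 of these rose, ebax-1, and 4 fell, henn-1 and, named after their values were seen, rde-4, eri-1 and pir-1, beside 19.1% of all genes higher and 17.8% lower. Of 12 reported regulators of microRNA silencing 0 passed and 11 were higher, with a median of 0.30. Among them sup-26, an RNA-binding protein, differed by 0.74 ± 0.18 (adjusted p = 0.0708), with 9.95 in replicate 4, between wild-type replicates 1 to 3 (9.17 to 9.49) and the mutants (10.05 to 10.38). kin-10, the regulatory subunit of casein kinase 2, differed by 0.56 ± 0.20 (adjusted p = 0.139).

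Of 16 other Argonautes 0 passed and 13 were higher, with a median of 0.23. ppw-1, an Argonaute of germline RNA interference, had the lowest p: its group means were 5.57 ± 0.71 and 4.20 ± 0.28 (SD, n = 4; limma, adjusted p = 0.0689), and replicate 4 read 4.50, inside the mutants' 3.90 to 4.53. Those values are dim, below the array medians of 5.20 to 5.30, and detection above background was not judged. nrde-3, the Argonaute that carries small interfering RNAs into somatic nuclei, differed by 0.79 ± 0.29 (SE; adjusted p = 0.138). alg-5, named for its place in the ALG family after its values were seen, differed by 0.04 (adjusted p = 0.810) and stayed level in replicate 4, at -0.12 from the other wild-type arrays.

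A list of microRNA-regulated and timing genes, called timing genes here, had the highest median among these lists. It was 0.65 over 11 measured genes, of which 10 were higher and 0 passed. The list shares lin-28 with the Dicer partners and lin-41 with the regulators. It also shares nhr-23 with the moulting markers and nhr-25 with the epidermis markers. hbl-1, a transcription factor held down by the let-7 family, had group means of 9.50 ± 0.71 and 10.71 ± 0.12 (SD, n = 4; limma, adjusted p = 0.0798). nhr-25, which encodes a nuclear receptor needed for moulting, differed by 1.12 ± 0.31 (SE; adjusted p = 0.0917). In the median over this list replicate 4 exceeded replicates 1 to 3 by 0.88. MicroRNA genes themselves were represented by 3 named probe sets, mir-8192, mir-8209 and mir-8210, of which 0 passed. mir-8192 differed by 1.03 ± 0.31 (adjusted p = 0.106) and mir-8210 by 0.42 ± 0.17 (adjusted p = 0.157), the latter from a dim 3.19 in the wild type. Without replicate 4 the deadenylase list had 10 of 11 genes higher and passing, decay 6 of 12, regulators 7 of 12, other Argonautes 7 of 16, timing genes 9 of 11 and Dicer partners 1 of 13, beside the 19.1% of all genes. Lower and passing, beside 17.8% of all genes, were the 4 Dicer partners above, lsm-1 among the decay genes and 2 other Argonautes, ppw-1 and, named after its values were seen, wago-1.

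Removing the length trend lowered most of these lists. Over all 8 arrays the median became 0.22 for deadenylases, 0.09 for decay, 0.17 for other Argonautes and 0.42 for timing genes, while it was 0.31 for the regulators and -0.06 for the Dicer partners. With replicate 4 left out as well, 5 of 11 deadenylase genes, 4 of 12 decay genes, 6 of 12 regulators, 6 of 16 other Argonautes, 6 of 11 timing genes and 1 of 13 Dicer partners were higher and passed, beside 19.8% of coding genes. Lower and passing in that setting were 4 of 13 Dicer partners, 1 of 12 decay genes and 2 of 16 other Argonautes. In the remaining lists 0 were lower and passed, beside 4049 of 18800 coding genes.

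**Figure D4:**
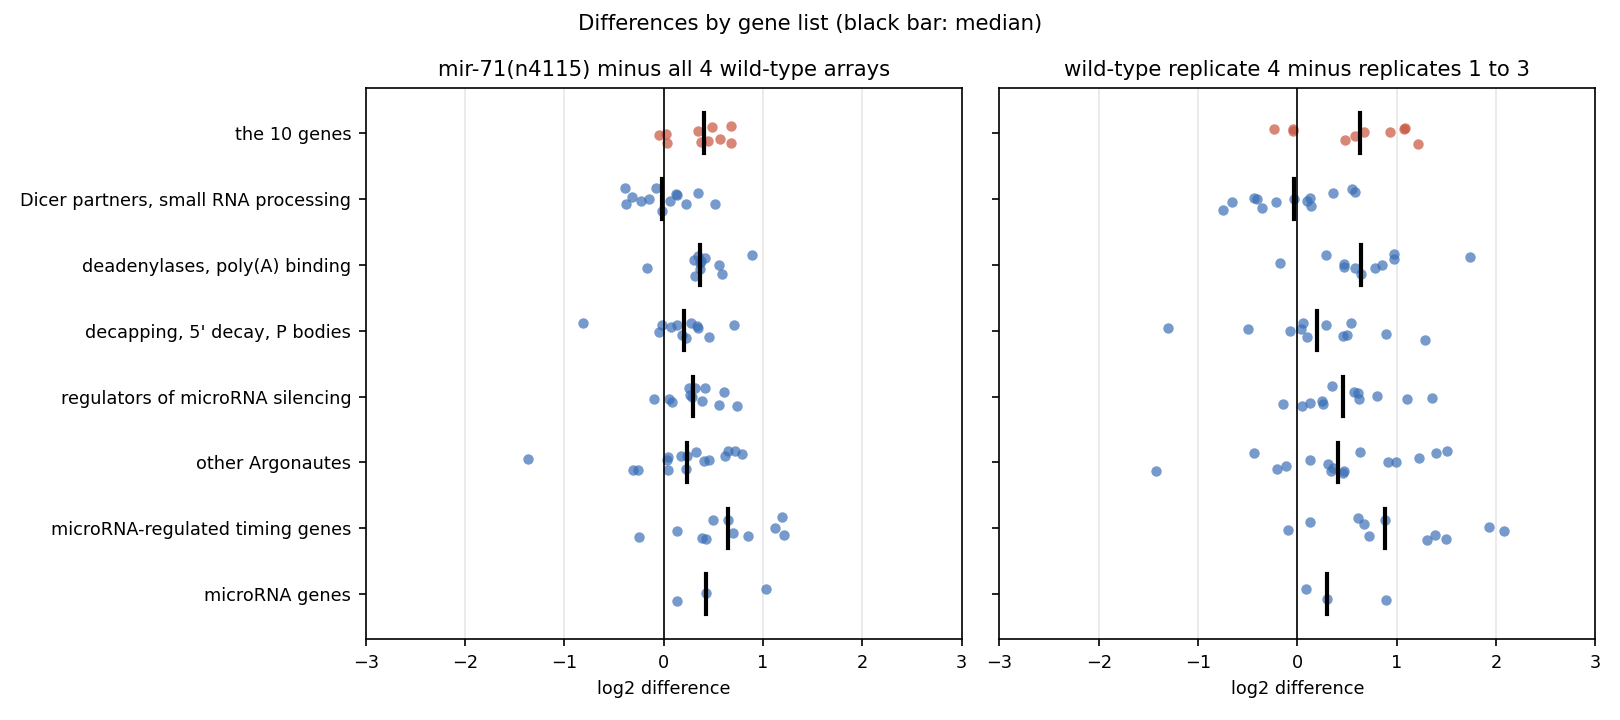
Log2 difference of each gene by list, with the median as a black bar; the left panel gives the mutants against all 4 wild-type arrays and the right panel wild-type replicate 4 against replicates 1 to 3. In both panels the medians of the Dicer partners lie near 0 (-0.02 and -0.03) and those of the timing genes lie furthest above it (0.65 and 0.88).

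The mean profile of the 10 genes was shared by many others, but not by every one of the 10. The correlation with that mean over the arrays was -0.68 for drsh-1, -0.003 for pash-1 and 0.01 for dcr-1. For alg-1, alg-2, ain-1, ain-2, nhl-2, tsn-1 and xrn-2 it ran from 0.933 to 0.997. The mean thus describes the genes high in replicate 4 and the mutants, and not drsh-1, pash-1 and dcr-1. The 5 genes whose values over the 8 arrays were most like the mean of the 10, each centred on its own mean, were bet-1, which encodes a double bromodomain protein, T20F5.6, Y50D7A.1, ptrn-1, a microtubule minus-end protein, and snf-1, with Pearson correlations from 0.997 to 0.998. A correlation above 0.95 was reached by 1303 of 25468 genes, or 5.12%. Since wild-type replicates 1 to 3 stand apart from the other 5 arrays, these values mostly restate that separation, and they are given as a description. bet-1 read 10.29 to 10.39 in replicates 1 to 3, 11.04 in replicate 4 and 10.84 to 10.997 in the mutants, so that, as for alg-2, replicate 4 exceeded every mutant array.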

How the data were processed

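The authors deposited 1 table of log2 signals, 29317 rows by 8 one-colour Affymetrix arrays, made with Partek 6.6 and RMA per the submitters' processing notes; order, settings, genome build: not given in the sources used here. The log2 scale was read from the values and the use of RMA. Array medians were 5.20 to 5.30, and no further normalisation was applied, which hides any shift common to most genes. Scanner files were not used, so detection above background was not judged. The number of arrays limits the precision.

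Groups came from the sample titles. Of 26192 probe sets with a gene in the platform annotation, 25546 had 1 symbol, 646 had several and named none, and 25495 were matched to RefSeq WBcel235 by Entrez identifier for names and gene lengths. The other 3125 rows were not tested. Genes took their brightest probe set. limma 3.58.1 in R 4.3.3 (lmFit, eBayes, 2-sided, no covariate) was fitted on all probe sets and tested on simulated data. Length trends were taken out by lowess (span 0.3) of each array's deviations on log2 gene length, over 18847 coding probe sets. Gene lists were matched by symbol, 3 of them through an older name. Named genes were the 10 genes, members of the further lists that passed or, with none, the 2 with the lowest p, and the 5 most alike genes. The 10 genes, lists and tests were chosen with earlier results of these data known. Alternatives were quantile normalisation, median subtraction, replicate block, leaving out the dimmest 40%, eBayes with trend and robust, array weights, length correction, each array left out, all rows tested, and medians over probe sets. No sequence is shown.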

Additional observations from a re-analysis of the deposited data

Results flagged for a closer look

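Of 30 sets of 4 arrays examined (10 genes and 5 pairs in each group), 3 held an array far from the other 3, where chance gives about 1 in 20. alg-1 read 10.35 in wild-type replicate 4, with 0.947 of the wild-type range between it and the nearest array. This array correlated more closely with the mutants than with wild-type replicates 1 to 3, though the sperm markers and F16A11.5 did not follow. alg-1 minus alg-2 was 1.19 in mutant replicate 3, where the other mutants gave 1.42 to 1.46. drsh-1 minus pash-1 was -0.55 in the same mutant array, against -0.89 to -0.83 in the others, and pash-1 was at its lowest there, 10.20. The groups of the other 6 genes with a high replicate 4 were not singled out by this measure.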

How the results depend on the processing

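The count of genes passing, 469 as reported, was 10466 with array weights (which gave wild-type replicate 4 a weight of 0.170), 7778 with the length correction when replicate 4 was dropped too, and 38 to 9401 with 1 array left out; other settings gave 345 to 505. Of the 10 genes 0 passed as reported and 7 with array weights (alg-1, alg-2, ain-1, ain-2, xrn-2, tsn-1 and nhl-2), 7 with the length correction when replicate 4 was dropped too, and 0 to 7 with 1 array left out, the 7 without replicate 4. Without any other array 0 passed. drsh-1, pash-1 and dcr-1, none of which passed as reported, changed sign: drsh-1 ranged from -0.106 to 0.016 with 1 array left out and pash-1 from -0.0272 to 0.0854. With quantile normalisation pash-1 was at -0.0017, and with array weights dcr-1 was at -0.0076. With the length trend removed dcr-1 was at -0.24 and pash-1 at -0.24, and without replicate 4 as well at -0.37 and -0.36. The other 7 kept their sign under all settings. Of the pairs, alg-1 minus ain-1 was -0.0007 as reported, 0.0018 with quantile normalisation and -0.0527 to 0.0668 with 1 array left out. With the length trend removed drsh-1 minus pash-1 was 0.0779 and dcr-1 minus drsh-1 was -0.0814, and without replicate 4 as well they were 0.0926 and -0.0995. No pair passed after adjustment under any setting, which 1 or 2 pairs alone could not have done. ain-1 minus ain-2 came nearest without replicate 4 (0.452, exact p = 0.0286, adjusted p = 0.143) and without the length trend as well (0.623, exact p = 0.0286, adjusted p = 0.0714). So did dcr-1 minus drsh-1 in that last setting (exact p = 0.0286, adjusted p = 0.0714). Both pairs stood at the smallest possible p there, so their miss after adjustment is not a result about them. The 4 matched differences of the replicate block cannot reach the threshold. Both groups carry replicate numbers 1 to 4. Deviations of same-numbered samples from their group means correlated at 0.19, -0.11, 0.37 and 0.27. The wild-type mean used here held replicate 4, so these values cannot decide whether the numbers mark pairs. The numbers were not taken as pairs in the main fit. With the replicate block 345 genes and 0 of the 10 passed, and with the length trend removed 369 and 0; not every array correlated best with its own number. The cause of these changes was not tested.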
